A study of Mus musculus with 20 samples.

Results

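Nfatc1 and the enhanced green fluorescent protein (eGFP) that marks its lineage were 2 of the 31055 features counted in single cells from the epidermis of mouse back skin in anagen, when hairs grow. Both rows were taken by name from each of the 2 deposited matrices and read across cell classes. Nfatc1 (ENSMUSG00000033016) lies at chr18:80606205-80713071 on the minus strand of GRCm38. The eGFP row is a transgene added to the mouse gene table and has no position in the genome build.

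The mutant mice were Fgf5-/- and carried Nfatc1-CreER, R26R and mTmG, and they received tamoxifen for 3 days from postnatal day 23 or 24. The control mice carried the same Nfatc1-CreER, R26R and mTmG transgenes without the Fgf5 mutation and received tamoxifen for 3 days from postnatal day 21 or 22. The labels list 16 samples for the mutant and 4 for the control, but the cells of each group stand in 1 pooled matrix, so each group counted as 1 sample and no difference between them has a replicate check. Genotype, the start of tamoxifen and any difference in sample handling cannot be told apart between the matrices. The labels give neither the age at harvest nor the number of animals.

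Nfatc1 is a transcription factor that enters the nucleus when calcineurin, a calcium-dependent phosphatase, removes its phosphates. In mouse hair follicles it is known for its expression in stem cells of the bulge, where it helps to hold them in quiescence, and it also acts in endothelial cells, T cells and osteoclasts. Nfatc1-CreER makes a recombinase that tamoxifen switches on in cells using the Nfatc1 promoter, and recombination of mTmG replaces a red membrane protein (tomato) with a green one for good. A cell with eGFP therefore had an active driver at labelling, or descends from one that did, whereas Nfatc1 RNA reports the gene at harvest.

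After filtering, 11002 mutant cells and 13790 control cells remained, with medians of 5984.5 and 5591.5 unique molecular identifiers (UMIs, each standing for 1 captured RNA molecule). The mutant cells held 71408 eGFP and 1354 Nfatc1 UMIs, and the control cells held 97136 eGFP and 1707 Nfatc1 UMIs. The tomato row was at 0 in every barcode of both matrices, against a floor of 3 UMIs that equals 0.0307 CPM (UMIs per 1000000 UMIs of the cells summed) in the mutant and 0.0213 CPM in the control. Cells without recombination could therefore not be recognised by their own reporter, and no share of eGFP among reporter UMIs was formed. Fgf5 itself, read by the same 3' counting, stood at 16.7 CPM in mutant follicle keratinocytes and at 20.1 CPM in control ones weighted to the same classes. The labels do not say which part of Fgf5 the mutation removes, so this level does not check the genotype. Of the barcodes, 59 occurred in both matrices, and 36 did so among the kept cells.

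Cells were grouped by clustering and marker genes into 23 classes with at least 50 cells in each matrix. Follicle keratinocytes made up 4854 mutant and 6159 control cells in 10 of these classes, and a class whose markers did not single out 1 cell type keeps its cluster number and leading genes. T cells came mostly from cluster 6 in the mutant (1037 of 1105 cells) and from clusters 2 and 12 in the control (1522 and 819 of 2387 cells). Melanocytes came mostly from cluster 4 in the mutant (1221 of 1469 cells) and cluster 8 in the control (1043 of 1352 cells), and interfollicular basal cells from cluster 3 in the mutant (1256 of 1304 cells) and cluster 10 in the control (970 of 998 cells). The same named class was thus not the same cluster in the mutant and control matrices for these 3 types. Dividing follicle cells, 1 class here (cluster 0), were also split unevenly in a finer clustering at resolution 2. Its fine cluster 0 had 1268 mutant and 246 control cells, and its fine cluster 1 had 373 mutant and 943 control cells. Their eGFP log2 ratios, mutant over control, were 0.07 and 0.18. Weighting by class, used below, does not even out such splits within a class. Exact 95% intervals are given for shares (Clopper-Pearson) and levels (Poisson), and they cover counting error only.

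Cells carried either very little eGFP or a great deal. Follicle keratinocytes with 2, 3, 4, 5, 6 and 7 eGFP UMIs numbered 253, 102, 67, 59, 49 and 80 in the mutant and 243, 80, 46, 46, 43 and 40 in the control. Counts per step thus fell away from 2 UMIs, and within this range were lowest at 6 UMIs in the mutant and at 7 UMIs in the control. From 8 to 20 UMIs each step held 45 to 87 mutant and 42 to 79 control cells, so the trough was shallow and no gap set off the cells beyond it. Over all kept cells the maximum was 345 eGFP UMIs in the mutant and 445 in the control. Cells with at least 4 eGFP UMIs are called eGFP-high here, a threshold chosen after the distribution was seen. They held 97.2% of the eGFP UMIs of mutant follicle keratinocytes and 98.0% of those of control ones, with medians of 19 and 24 eGFP UMIs per eGFP-high cell.

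**Figure D1:**
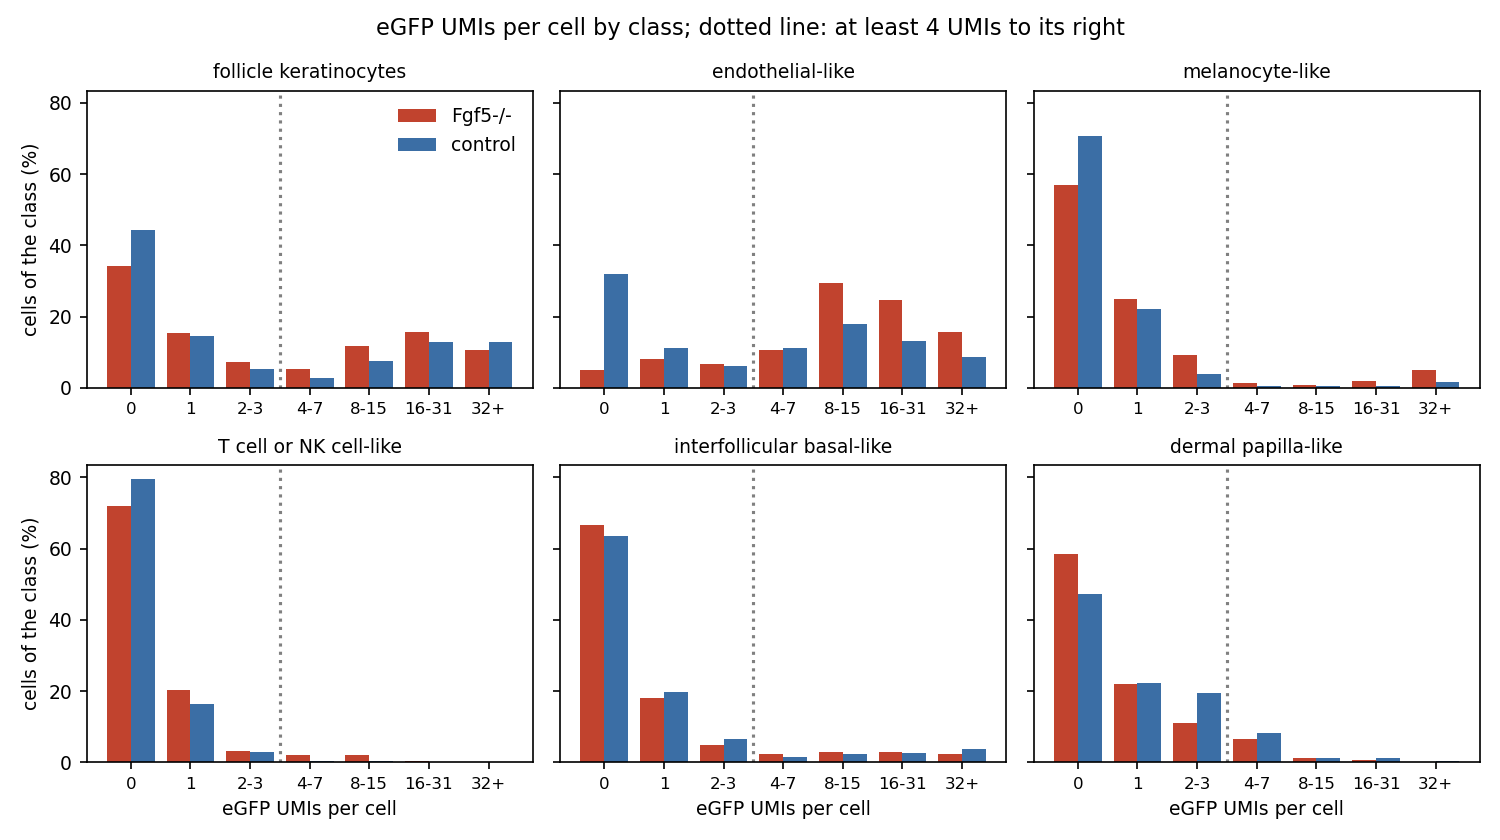
Share of cells of a class (vertical axis, %) by eGFP UMIs per cell (horizontal axis, bins), with the Fgf5-/- matrix left of the control in each bin and a dotted line at 4 UMIs. Follicle keratinocytes show a second rise to the right of the line, where 43.2% of mutant and 35.9% of control cells lie. The bins widen to the right, which adds to the height of this rise.

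Free RNA in the droplets gave eGFP UMIs to cells that need not make it, and its size was estimated from Krt5, Krt14 and Krt17, keratins that T cells and melanocytes should lack. Of the cells in the T cell or NK cell-like class, 28.1% of mutant and 20.5% of control cells had at least 1 eGFP UMI at median depths of 1929 and 2257 UMIs. In the eGFP-low T cells the eGFP level was 141 CPM in the mutant and 93.8 CPM in the control, and free RNA gave an expectation of 72.3 CPM in mutant and 92.3 CPM in control T cells. In eGFP-low melanocytes it was 39.7 CPM in the mutant and 23.7 CPM in the control, beside 22.4 CPM expected in mutant and 23.9 CPM expected in control melanocytes. The background was thus at its expectation in the control and above it in the mutant, in both cell types. The expectation comes from summed keratin UMIs, so cells with at least 5 of them weigh on it. Such cells were commoner in the control than in the mutant T cell class (counts below). What they add to the expectation was not tested. Free RNA accounted for an expected 0.146 eGFP UMIs per mutant cell and 0.230 per control cell, which is 1.29% of eGFP UMIs in mutant follicle keratinocytes and 1.72% in control ones. These percentages may be too low, since eGFP-low T cells and melanocytes of the mutant held more eGFP than the estimate gave. Exactly 1 eGFP UMI was found in 742 mutant and 902 control follicle keratinocytes, and the source of these UMIs was not tested. A single eGFP UMI is therefore not read as labelling here, and the share of eGFP-high cells is the main measure.

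In follicle keratinocytes eGFP was widespread. At least 1 eGFP UMI was found in 65.8% of mutant cells (95% interval 64.4 to 67.1) and 55.8% of control cells (54.5 to 57.0), at median depths of 7591 and 7596 UMIs. The eGFP-high share was 43.2% in the mutant (2095 cells, 41.8 to 44.6) and 35.9% in the control (2210 cells, 34.7 to 37.1). With every cell thinned to 1500 UMIs, at least 1 eGFP UMI remained in 47.6% of mutant and 38.9% of control cells, and at least 2 remained in 36.7% of mutant and 29.8% of control cells, after 101 mutant and 158 control cells below that depth were left out. The level was 1209 CPM in mutant and 1098 CPM in control follicle keratinocytes, a log2 ratio of 0.14 (0.12 to 0.16). With control classes weighted to the mutant class makeup, the control level was 960 CPM and the log2 ratio 0.33 (0.31 to 0.35), and the eGFP-high share was 43.2% in the mutant beside 32.8% in the weighted control. Neither ratio reached 1.5-fold, and the unweighted one was -0.040 at clustering resolution 0.5, which placed 1257 mutant and 29 control interfollicular basal cells among follicle cells.

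Among follicle classes, the order of eGFP-high shares was led by cluster 5, marked by Pthlh, Krt6a and Sox9, genes of the outer root sheath and companion layer. Of its 10 leading genes, 2 were on the marker list of the inner bulge, and no class was named as bulge. The share in cluster 5 was 61.7% in the mutant (56.9 to 66.3) and 55.0% in the control (51.3 to 58.6). Its eGFP level was 2605 CPM in the mutant and 2020 CPM in the control. The inner root sheath-like class followed in the mutant with 51.7% (45.5 to 57.8), against 42.4% in the control (38.9 to 46.0). The inner root sheath is a sleeve around the growing hair that descends from matrix cells. The outer root sheath-like class had 49.1% in the mutant (45.5 to 52.8) and 36.9% in the control (34.7 to 39.1), and the companion layer-like class had 48.1% in the mutant (34.3 to 62.2) and 43.9% in the control (30.7 to 57.6). In the mutant the intervals of these 3 classes overlapped one another, and in the control those of the companion layer-like class overlapped both others and cluster 5.

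Cluster 13, led by Cst6 and Krt79, which mark the upper follicle, with lipid genes such as Cidea, Scd1 and Plin2, had 45.8% in the mutant and 30.4% in the control. Cluster 16, led by Slc39a10, Flrt2 and Fgf5, had 45.3% in the mutant and 26.4% in the control. Dividing cells of cluster 0 (Hist1h1b, Pclaf) had 39.6% in the mutant and 29.7% in the control, and the hair cortex and cuticle-like class 39.6% in the mutant and 31.5% in the control. The lowest follicle shares were in cluster 7 (Selenbp1, Krt35), at 33.3% in the mutant and 24.6% in the control, and in cluster 18 (Csta1, Foxq1), at 28.3% in the mutant and 22.0% in the control. All 10 follicle classes lay above the share of interfollicular basal-like cells, which was 10.4% in the mutant (8.82 to 12.2) and 10.1% in the control (8.32 to 12.2). eGFP was thus carried by cells of every follicle lineage class counted, differentiated hair-forming ones included.

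Outside keratinocytes, eGFP was highest in the endothelial-like class. Of 122 mutant endothelial-like cells 98 were eGFP-high, 80.3% (72.2 to 87.0), and of 197 control cells 100 were, 50.8% (43.6 to 57.9). The level was 5329 CPM in the mutant and 2313 CPM in the control, the highest of the 23 classes in both matrices. These cells held few keratin UMIs: 93 of the 98 mutant and 92 of the 100 control eGFP-high endothelial-like cells had fewer than 5 UMIs of the 3 keratins together. Lymphatic genes stood high in the same class, with Prox1, the regulator of lymphatic identity, at 598 CPM in the mutant and 517 CPM in the control, and Lyve1, a hyaluronan receptor of lymphatic vessels, at 997 CPM in the mutant and 632 CPM in the control.

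Smaller eGFP-high groups stood in other classes. The T cell or NK cell-like class was eGFP-high in 4.62% of the mutant (51 cells) and 1.17% of the control (28 cells), and fewer than 5 keratin UMIs were found in 50 of those 51 mutant cells and 18 of those 28 control cells, beside 1092 of all 1105 mutant and 2304 of all 2387 control cells of the class. The 3 keratins together stood at 568 CPM in eGFP-high and 490 CPM in other mutant cells, and at 2347 CPM in eGFP-high and 673 CPM in other control cells, so keratin moved with eGFP in the control; its part in the share was not tested. Melanocyte-like cells were eGFP-high in 8.92% of the mutant (131 cells) and 3.48% of the control (47 cells), with fewer than 5 keratin UMIs in 114 mutant and 35 control cells (87.0% and 74.5%). Their keratin level was 594 CPM in eGFP-high and 152 CPM in other mutant cells and 459 CPM in eGFP-high and 174 CPM in other control cells. Fibroblast-like cells reached 7.81% in the mutant (40 cells) and 1.98% in the control (8 cells), with fewer than 5 keratin UMIs in 28 mutant and 4 control cells. Their keratin level was 1475 CPM in eGFP-high and 449 CPM in other mutant cells. In the control it was 2154 CPM in eGFP-high and 857 CPM in other fibroblast-like cells, and its part in these shares was not tested. Interfollicular suprabasal-like cells reached 15.9% in the mutant and 6.06% in the control. Langerhans cell or macrophage-like cells were at 13.2% in the mutant (10 of 76) and 29.0% in the control (18 of 62), but 3 of those 10 mutant and 0 of those 18 control cells were below 5 keratin UMIs. Dermal papilla-like cells were eGFP-high in 8.43% of the mutant and 11.2% of the control, with a median of only 5 eGFP UMIs and median depths of 21122.5 UMIs in mutant and 29556 UMIs in control eGFP-high cells. In the dermal papilla-like class, then, the threshold of 4 UMIs was passed mostly by very deep cells at a low eGFP level, 362 CPM in eGFP-high mutant cells and 326 CPM in eGFP-high control cells.

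**Figure D2:**
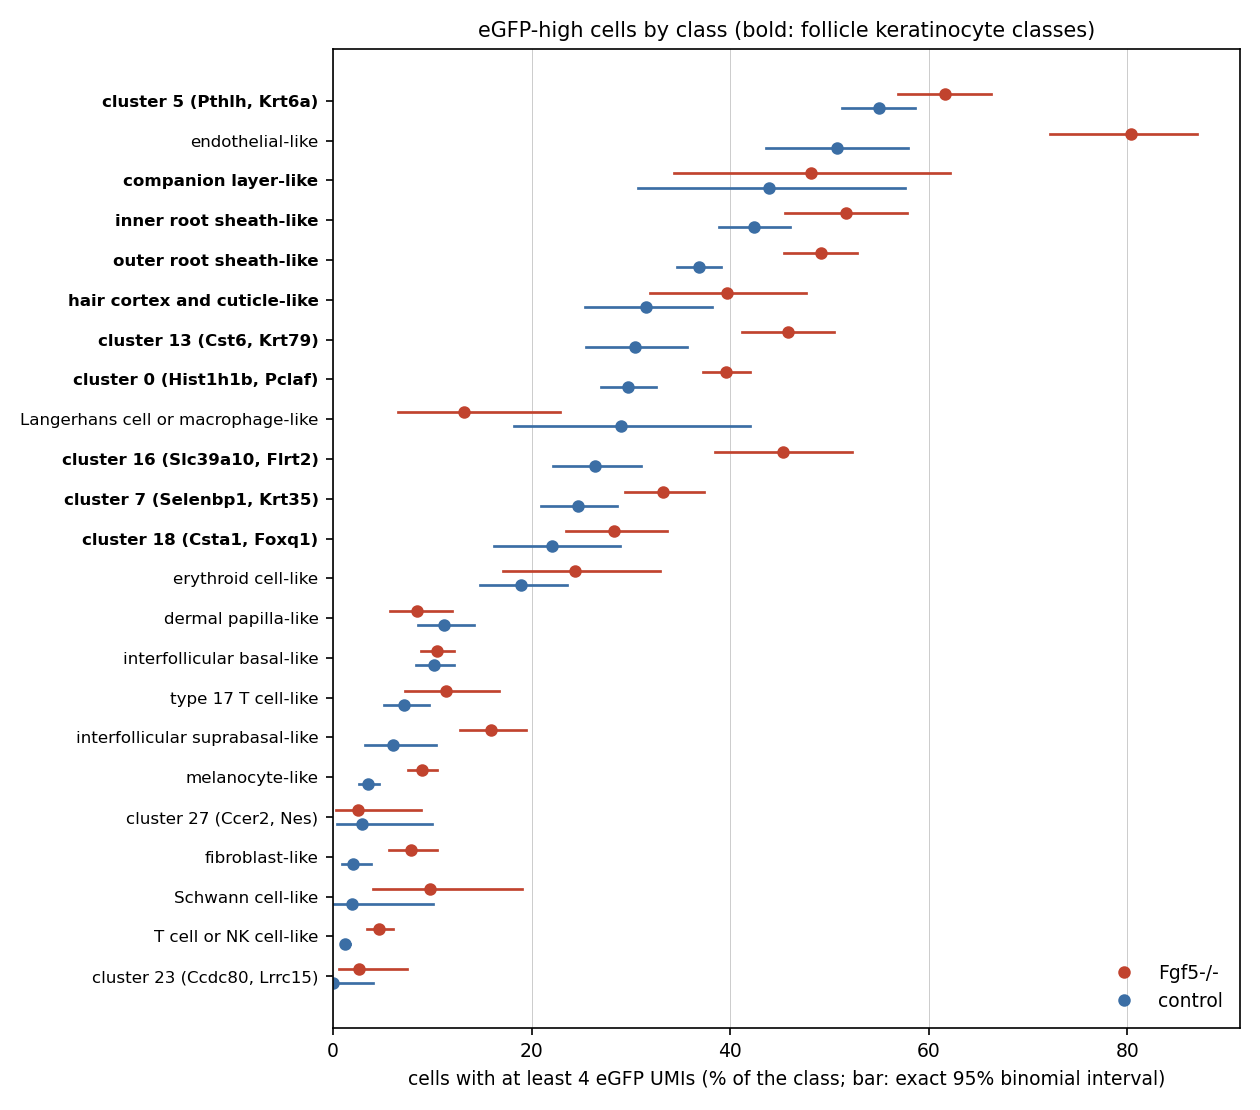
Share of cells with at least 4 eGFP UMIs (horizontal axis, %) in each of the 23 classes (rows, follicle keratinocyte classes in bold), Fgf5-/- above control, with exact 95% intervals for counting error as bars. Endothelial-like cells (80.3% in the mutant, 50.8% in the control) and cluster 5 (61.7% in the mutant, 55.0% in the control) lead.

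Set side by side, the eGFP-high share was higher in the mutant matrix than in the control in 20 of 23 classes, the others being the Langerhans cell or macrophage-like class, the dermal papilla-like class and cluster 27. The eGFP level was at least 1.5-fold different, with the nearer bound of its interval beyond 1.2-fold and at least 20 CPM in 1 matrix, in 10 of 23 classes, and in all 10 it was higher in the mutant. The number called higher was 6 at resolution 0.5 and 6 with each matrix clustered on its own, and it was 8 to 11 under the other alternatives. Erythroid cell-like cells passed the rule as lower in the mutant with doublet calls kept (-0.79) and at resolution 2 (-0.69). Read by the same size rule, the share of all genes called in a class ran from 2.73% to 42.4%, with a median of 19.6%. In 4 of these classes the ratio passed the rule under every alternative that could be computed. The log2 ratio was 1.204 (1.12 to 1.29) in endothelial-like cells, where 12.4% of genes were called, 1.03 (0.83 to 1.23) in fibroblast-like cells (23.4% called) and 1.02 (0.96 to 1.09) in melanocyte-like cells (19.6% called). Cluster 13 was the one follicle class past the rule at this clustering, at 0.87 (0.81 to 0.93) with 35.1% of genes called. The other follicle classes lay between 0.20 and 0.47, each with the higher level in the mutant. In the finer clustering at resolution 2, with class names of its own, sebaceous gland-like cells were at 1.26 (1.17 to 1.34). Upper follicle-like cells were at 0.34 (0.26 to 0.42) there, short of 1.5-fold. Fine cluster 7 (Selenbp1, Krt35), at 0.62 (0.54 to 0.70), and fine cluster 8 (Pthlh, Wfdc18), at 0.596 (0.55 to 0.64), passed the rule. So did the interfollicular basal-like cells of the finer clustering, at 0.63 (0.54 to 0.71), though that class was not past the rule at the main clustering. Their eGFP level was 383 CPM in the mutant and 248 CPM in the control, and their eGFP-high share was 1.46-fold that of the control.

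The other 6 classes past the rule lost the call under at least 1 alternative. Interfollicular suprabasal-like cells had a log2 ratio of 1.38 (1.21 to 1.56; 41.4% called), which was 0.29 at clustering resolution 0.5. The T cell or NK cell-like class had 1.14 (1.003 to 1.28; 27.8% called), and between 0.44 and 0.55 in the 3 other clusterings. Schwann cell-like cells had 1.304 (2.73% called) and 0.32 with doublet calls kept, cluster 23 had 1.303 (7.21% called) and 0.02 at resolution 2, and dermal papilla-like cells had 0.64 (39.7% called) and 0.18 without cells over 20000 UMIs. Type 17 T cell-like cells sat on the threshold at 0.59 (12.3% called). In the classes not past the rule, the share of genes called was 9.71% in the companion layer-like class, 14.3% in cluster 16, 33.2% in cluster 18, 19.8% in the hair cortex and cuticle-like class, 23.7% in the inner root sheath-like class, 14.5% in the outer root sheath-like class, 18.4% in cluster 5, 18.6% in cluster 7, 25.2% in cluster 0, 42.4% in interfollicular basal-like cells, 30.5% in the Langerhans cell or macrophage-like class, 10% in erythroid cell-like cells and 4.53% in cluster 27. Scaling with edgeR's TMM factors shifted all ratios of a class by -0.16 (type 17 T cell-like) to 0.40 (suprabasal-like), and the eGFP level was higher in the mutant in 21 of 23 classes with either scale.

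The eGFP-low cells differed the same way, with 67.8 CPM of eGFP in mutant and 45.6 CPM in control follicle keratinocytes. The efficiency of labelling, the genotype and the start of tamoxifen cannot be told apart in these ratios.

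Nfatc1 RNA followed another order. The endothelial-like class was again highest, at 203 CPM in the mutant (162 to 251) and 139 CPM in the control (116 to 166), with a UMI in 37.7% of mutant and 35.0% of control cells. Schwann cell-like cells were at 129 CPM in the mutant (77.4 to 201) and 60.7 CPM in the control (24.4 to 125), on 19 mutant and 7 control UMIs. Fibroblast-like cells were at 72.3 CPM in the mutant (62.2 to 83.5) and 50.2 CPM in the control (40.9 to 61.0), and type 17 T cell-like cells at 54.5 CPM in the mutant (35.6 to 79.9) and 39.6 CPM in the control (30.6 to 50.5). The endothelial-like class stood apart from fibroblast-like cells in both matrices by intervals that did not overlap, whereas the Schwann, fibroblast and type 17 T cell-like classes overlapped in the control.

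Among keratinocytes, Nfatc1 was highest in cluster 13, at 66.1 CPM in the mutant (58.0 to 75.0) and 47.2 CPM in the control (40.8 to 54.2). The finer clustering, whose borders differ from those of cluster 13, had its upper follicle-like class at 77.0 CPM in the mutant and 65.9 CPM in the control. Its sebaceous gland-like class was at 49.7 CPM in the mutant and 38.1 CPM in the control. Interfollicular basal-like cells stood at 27.6 CPM in the mutant (24.2 to 31.4) and 26.4 CPM in the control (23.1 to 29.99), and suprabasal-like cells at 23.1 CPM in the mutant and 22.3 CPM in the control. Cluster 5 had 22.8 CPM in the mutant (18.0 to 28.5) and 35.7 CPM in the control (31.9 to 39.7). All other follicle classes were at or below 10.1 CPM. The outer root sheath-like class had 5.08 CPM in the mutant (3.18 to 7.69) and 5.04 CPM in the control (3.93 to 6.37), the inner root sheath-like class 3.65 CPM in the mutant and 4.96 CPM in the control, and dividing cells of cluster 0 had 2.44 CPM in the mutant and 2.54 CPM in the control. Of all Nfatc1 UMIs, cluster 5 held 5.76% in the mutant and 19.3% in the control, while cluster 13 held 17.7% in the mutant and 11.7% in the control. Melanocyte-like cells, at 5.75 CPM in the mutant and 3.67 CPM in the control, were the lowest class outside the epithelium in both matrices.

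**Figure D3:**
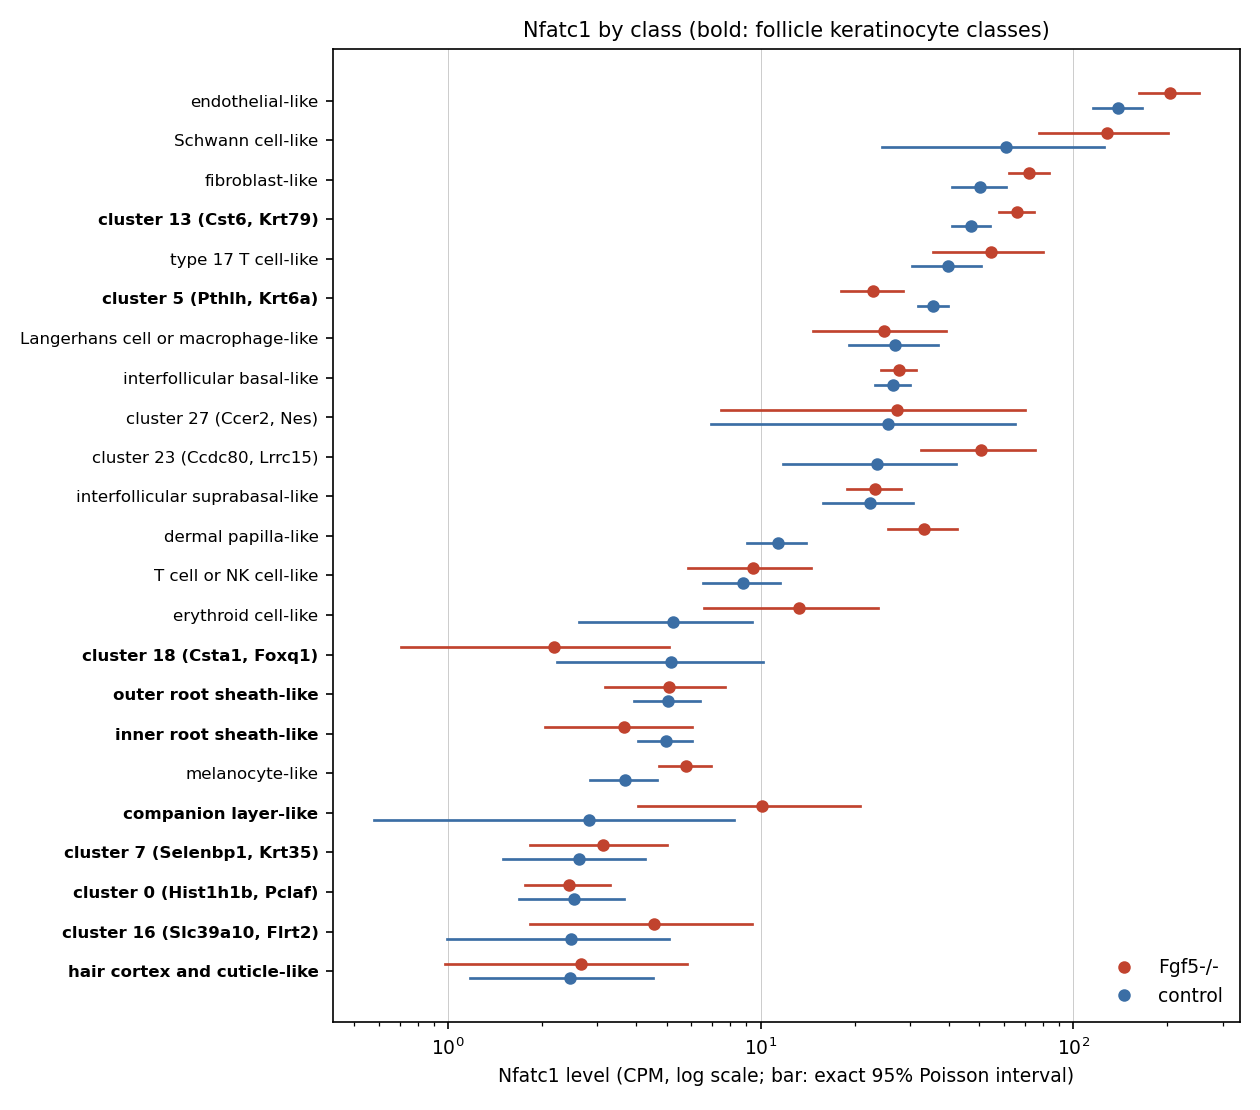
Nfatc1 level (horizontal axis, CPM on a log scale) in each of the 23 classes (rows, follicle keratinocyte classes in bold), Fgf5-/- above control, with exact Poisson 95% intervals as bars. Levels run from 203 CPM in mutant and 139 CPM in control endothelial-like cells down to under 6 CPM in most follicle classes, with cluster 13 and cluster 5 standing above the other follicle classes.

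Nfatc1 RNA passed the size rule between the matrices in 2 of the 12 classes where it reached 20 CPM in at least 1 matrix. In cluster 5 it was lower in the mutant, with a log2 ratio of -0.64 (-1.02 to -0.28), in a class where 18.4% of genes were called. In dermal papilla-like cells it was higher in the mutant, at 33.3 CPM against 11.3 CPM in the control and a log2 ratio of 1.56 (1.06 to 2.04), in a class where 39.7% of genes were called and the median depth was 3071.5 UMIs in the mutant and 7607.5 UMIs in the control. In the finer clustering, which redraws the borders of cluster 5, a smaller cluster numbered 24 and led by Krt6a, Apoe, C2cd4b and Barx2 stood at 37.0 CPM in the mutant (25 UMIs, 24.0 to 54.6) and 59.1 CPM in the control (289 UMIs, 52.5 to 66.3). Fine cluster 8, led by Pthlh, Wfdc18 and Sox9, went the other way, at 19.7 CPM in the mutant (15.1 to 25.3) and 10.5 CPM in the control (8.02 to 13.5). Fine cluster 24 had 101 mutant and 320 control cells. The difference in cluster 5 lay in its deepest cells: 112 control cells over 20000 UMIs held 212 of its 329 control Nfatc1 UMIs, whereas 24 such mutant cells held 12 of 78. Without them cluster 5 stood at 26.3 CPM in the mutant and 27.1 CPM in the control, a log2 ratio of -0.04 (-0.50 to 0.40), and the call was also lost with cells of at least 1000 genes and at most 10% mitochondrial UMIs only (-0.52) and at resolution 2 (-0.53). Dermal papilla-like cells without those over 20000 UMIs stood at 27.1 CPM in the mutant and 12.5 CPM in the control, and kept the call at 1.12 (0.27 to 2.004). Over all follicle keratinocytes Nfatc1 stood at 9.69 CPM in the mutant and 10.3 CPM in the control, a log2 ratio of -0.09 (-0.27 to 0.08), and of 0.07 (-0.11 to 0.26) with classes weighted. With each matrix clustered on its own the unweighted ratio was -1.08, and 448 of 465 mutant but 17 of 326 control cells of cluster 13 were then outside the follicle classes.

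Across the 23 classes, Nfatc1 and eGFP levels were nearly unrelated. Pearson's r of log2(CPM + 1) was -0.02 in the mutant and -0.09 in the control, given as a description of classes that share libraries. The endothelial-like class was high in both measures, and cluster 5 and cluster 13 were high in eGFP and intermediate in Nfatc1. The outer and inner root sheath-like classes and the dividing cells combined eGFP-high shares of 39.6% to 51.7% in the mutant and 29.7% to 42.4% in the control with Nfatc1 at or below 5.08 CPM. Fibroblast-like and Schwann cell-like cells showed the reverse, with Nfatc1 at 72.3 and 129 CPM in the mutant and eGFP-high shares under 10%.

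Within follicle keratinocytes, Nfatc1 was higher in eGFP-high cells than in cells with no eGFP UMI. It was 12.1 CPM in eGFP-high and 6.996 CPM in eGFP-negative mutant cells, a log2 ratio of 0.79 (0.44 to 1.15), and 14.5 CPM in eGFP-high and 4.96 CPM in eGFP-negative control cells, a log2 ratio of 1.55 (1.25 to 1.85). With the negative cells weighted to the class makeup of the eGFP-high ones, the ratio was 0.30 (-0.08 to 0.69) in the mutant and 1.43 (1.09 to 1.80) in the control, and Nfatc1 was under the 20 CPM minimum of the size rule in both. In control cluster 5 it was 43.6 CPM in eGFP-high and 8.03 CPM in eGFP-negative cells, a log2 ratio of 2.44 (1.62 to 3.41) on 303 and 12 UMIs. In mutant cluster 5 it was 26.4 CPM in eGFP-high and 18.6 CPM in eGFP-negative cells, a log2 ratio of 0.51 (-0.56 to 1.78) on 64 and 8 UMIs. Cluster 5 thus held 303 of the 565 Nfatc1 UMIs of eGFP-high control follicle cells and 64 of the 271 of mutant ones, and the mutant interval there included 0. Without cells over 20000 UMIs the cluster 5 ratio was 0.78 (-0.30 to 2.07) in the mutant and 2.90 (1.80 to 4.25) in the control, on 8 mutant and 7 control UMIs in eGFP-negative cells. In the control, fine cluster 24 was above fine cluster 8 in both Nfatc1 (59.1 and 10.5 CPM) and eGFP (2272 and 1640 CPM). In the mutant it was too, with Nfatc1 at 37.0 and 19.7 CPM and eGFP at 2690 and 2478 CPM. What such a mixture adds to the ratio within cluster 5 was not tested. In cluster 13, where Nfatc1 was higher, the log2 ratio was 0.40 (-0.09 to 0.92) in the mutant and 0.56 (0.04 to 1.10) in the control, and in interfollicular basal-like cells 0.41 (-0.07 to 0.87) in the mutant and 0.07 (-0.40 to 0.53) in the control. In control endothelial-like cells Nfatc1 was 168 CPM in eGFP-high and 86.0 CPM in eGFP-negative cells, a log2 ratio of 0.96 (0.24 to 1.76). In the mutant 6 endothelial-like cells had no eGFP UMI, too few for this comparison, and no ratio was formed. Depth moved with eGFP in some classes, and eGFP-high cells of control cluster 5 had a median of 9694.5 UMIs against 5079 in eGFP-negative ones.

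The genes that went with eGFP in follicle keratinocytes were then listed with the same weighting and size rule, in each matrix on its own. With eGFP-high cells against cells with no eGFP UMI, 19 of 5336 genes were higher (0.356%) and 40 lower (0.75%) in the mutant, and 31 of 5302 genes were higher (0.585%) and 49 lower (0.924%) in the control. Past the rule in both matrices, 3 genes were higher and 17 lower. Without the weighting by class 59 genes were higher in both, and 5 were lower in both without cells over 20000 UMIs. With at least 1 eGFP UMI in place of the eGFP-high threshold, 13 genes were higher (0.244%) and 32 lower (0.601%) in the mutant, 21 were higher (0.396%) and 38 lower (0.717%) in the control, and 1 gene, Postn, was higher and 12 were lower in both. Within classes of the follicle, then, few genes separated eGFP-high from eGFP-negative cells.

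The 3 higher genes were Postn, Cpm and Csrp2. Postn encodes periostin, a matrix protein used as a bulge marker, and it was at 28.5 CPM in eGFP-high and 14.2 CPM in eGFP-negative mutant cells and at 32.5 CPM in eGFP-high and 17.1 CPM in eGFP-negative control cells, with log2 ratios of 1.01 (0.71 to 1.31) in the mutant and 0.93 (0.74 to 1.12) in the control. Cpm, a membrane carboxypeptidase, had log2 ratios of 0.997 in the mutant and 0.61 in the control, and Csrp2, a LIM domain protein, 0.60 in the mutant and 0.74 in the control. With every cell thinned to 3000 UMIs, Postn alone of these 3 passed the rule in both matrices, and Postn was also the 1 gene higher in both without cells over 20000 UMIs. There Cpm turned to -0.10 in the mutant and -0.02 in the control, and Csrp2 stood at 0.33 in the mutant and 0.196 in the control, short of 1.5-fold.

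Among the lower genes were 3 keratins of the inner root sheath. Krt72, a type II keratin of that layer, was at 46.6 CPM in eGFP-high and 132 CPM in eGFP-negative mutant cells and at 70.9 CPM in eGFP-high and 345 CPM in eGFP-negative control cells, with log2 ratios of -1.50 in the mutant and -2.28 in the control. Krt73, another keratin of the same sheath, stood at -1.06 in the mutant and -1.29 in the control, and Krt26, a type I partner, was also lower in both. Cnfn, which encodes cornifelin of the cornified envelope, was at -1.67 in the mutant and -1.82 in the control, and Krtdap, a keratinocyte differentiation gene, at -1.34 in the mutant and -1.01 in the control. Without cluster 13 Krtdap was at -0.01 in the mutant and 0.58 in the control, and Krt77 at -0.12 in the mutant and 0.11 in the control, so both calls were lost and both control signs turned. The other named lower genes were Crym, Fbp1, Cryba4, Nkd2, Fabp4, Krt77 and Cdh6. Krt71, likewise an inner root sheath keratin, went against them with log2 ratios of 1.23 in the mutant and 0.52 in the control, past the rule in the mutant. After thinning to 3000 UMIs, 4 of the 12 named lower genes (Krt72, Crym, Fbp1 and Krtdap) passed the rule in both matrices, and all 12 kept their sign. Without cells over 20000 UMIs 3 of the 12 passed in both (Krt72, Krtdap and Krt77), with Krt73 at -0.54 in the mutant and -0.20 in the control. Without the weighting by class 1 of the 12 passed in both (Krtdap) and 9 kept their sign, and without cluster 13 10 of the 12 passed in both and kept their sign.

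**Figure D4:**
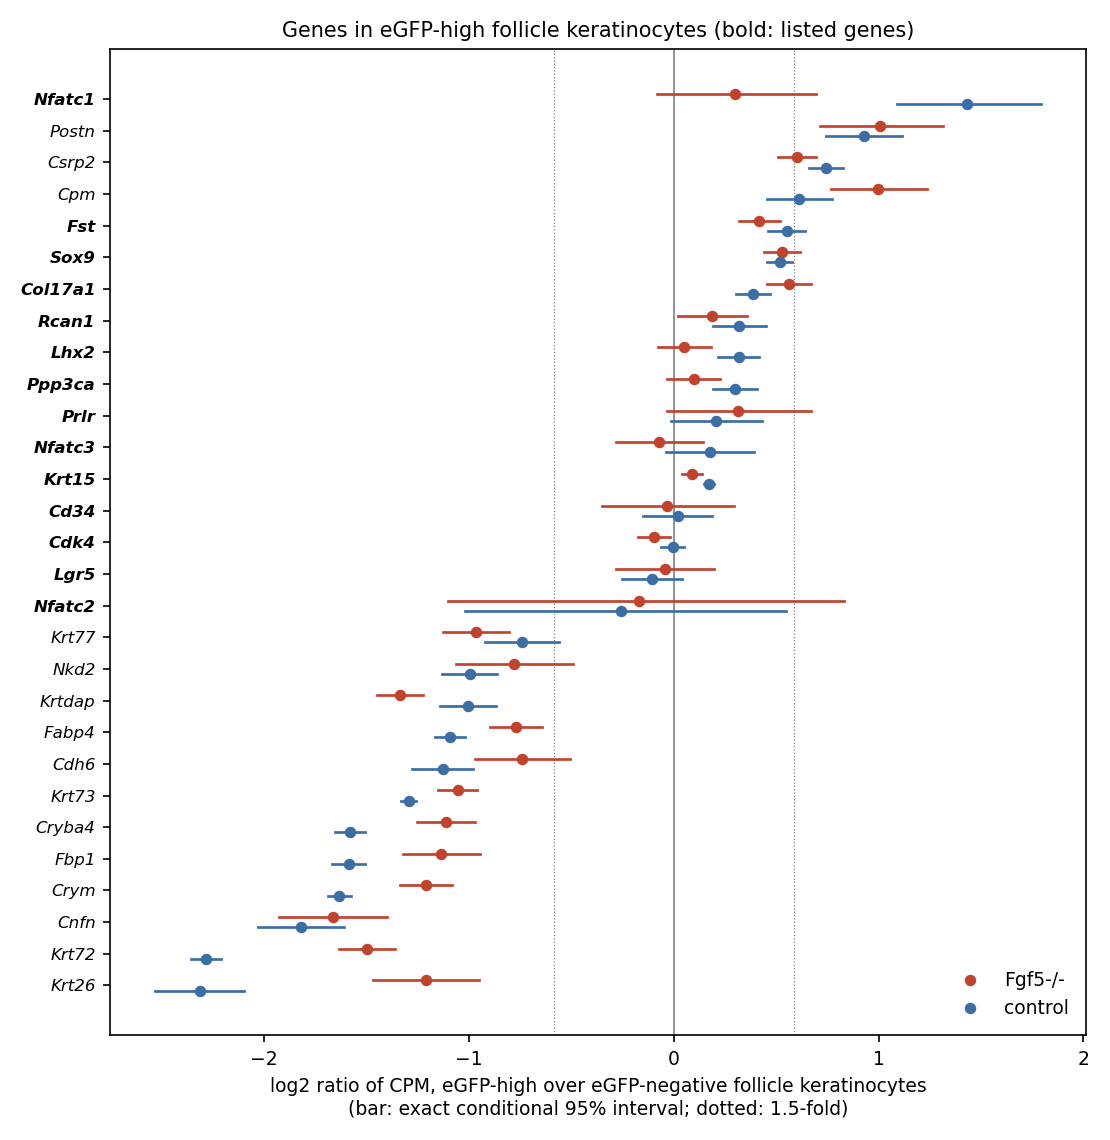
Log2 ratio of CPM in eGFP-high over eGFP-negative follicle keratinocytes (horizontal axis), negative cells weighted to the class makeup of the eGFP-high ones, for named genes (rows), Fgf5-/- above control, with exact conditional 95% intervals for counting error as bars and dotted lines at 1.5-fold. Postn, Cpm and Csrp2 lie right of the line in both matrices, whereas Cd34 and Lgr5 lie near 0.

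Lists of genes around Nfatc1, chosen with earlier results of these data known, had few members past the rule with eGFP, as had all genes. Over all genes 0.356% were higher and 0.75% lower in the mutant, and 0.585% higher and 0.924% lower in the control. At those shares lists of this size would hold few calls or 0, so the counts do not set these lists apart. Of 19 calcineurin-NFAT pathway genes compared in each matrix, 0 passed the rule in either direction, and their median log2 ratio was 0.10 in the mutant and 0.05 in the control, beside 0.02 over all genes in the mutant and -0.02 over all genes in the control. Of 16 genes tied to Nfatc1 in bulge stem cells, 1 was higher in the mutant and 0 in the control. That gene was Foxc1, a transcription factor that keeps bulge cells quiescent, with log2 ratios of 0.64 (0.33 to 0.96) in the mutant and 0.31 (0.10 to 0.54) in the control. Cdk4, a cell cycle kinase known to be repressed by Nfatc1 in the bulge, had -0.10 in the mutant and -0.01 in the control, and Prlr, the prolactin receptor, was at 11.8 CPM in eGFP-high mutant cells and 16.4 CPM in eGFP-high control cells.

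Bulge stem cell genes were higher in 2 of 18 cases in the mutant, Postn and Foxc1, and in 1 of 21 in the control, Postn, with 0 lower in each. Sox9, the transcription factor of bulge and outer root sheath, had log2 ratios of 0.53 (0.44 to 0.62) in the mutant and 0.52 (0.45 to 0.58) in the control, short of 1.5-fold. Col17a1, a hemidesmosomal collagen, had 0.56 in the mutant and 0.39 in the control, and Krt15 had 0.09 in the mutant and 0.17 in the control. Cd34, the surface marker of mouse bulge cells, had -0.03 in the mutant and 0.02 in the control, and Lgr5, a marker of lower bulge and hair germ, -0.04 in the mutant and -0.11 in the control. Inner root sheath and hair shaft genes were higher in 3 and lower in 5 of 21 cases in the mutant and higher in 0 and lower in 5 of 18 in the control. Of 22 S phase and mitosis genes, 0 passed in either matrix. Beside these counts, 0.356% of all genes were higher and 0.75% lower in the mutant, and 0.585% higher and 0.924% lower in the control. A count of 0 in a list of that size is therefore near the share over all genes.

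Upper follicle and sebaceous genes differed between the matrices, with 4 of 11 lower and 0 higher in mutant eGFP-high cells and 2 of 12 higher and 0 lower in control ones, beside 0.75% of all genes lower in the mutant and 0.585% higher in the control. The difference of these counts between the matrices was not tested.

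Set mutant over class-weighted control, follicle keratinocytes had 9.11% of genes higher and 10.5% lower. The calcineurin-NFAT list had 0 higher and 1 lower of 19 compared, the lower gene being Calm3, a calmodulin gene, at a log2 ratio of -0.64. Nfatc3, a relative of Nfatc1, was at 25.3 CPM in the mutant and 19.0 CPM in the weighted control, a log2 ratio of 0.42 (0.29 to 0.55), and Nfatc2 and Nfatc4 were at or below 1.48 CPM in both. Krt15 was lower in the mutant, at 520 CPM against 830 CPM in the weighted control, and passed the rule at -0.68. It was 1 of 18 bulge stem cell genes compared, of which 3 were higher (Itga6 at 1.003, Foxp1 at 0.67 and Col17a1 at 0.66) and 3 lower (Krt15, Hopx at -1.63 and Nfia at -0.79). Cd34 was at 12.01 CPM in the mutant and 13.5 CPM in the weighted control.

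Over the 23 classes, the named genes whose levels followed eGFP best, by the lower of its mutant and control correlations among 9609 genes, were Rapgef5, F11r, Hspa4l, Dgkz and Afap1l1. Rapgef5 had r of 0.75 in the mutant and 0.77 in the control and was highest in endothelial-like cells in both. Those most like Nfatc1 were Psmb8, H2-T23, Syne1, Ripk1 and B2m, with r of 0.87 in the mutant and 0.84 in the control for Psmb8, an immunoproteasome subunit. The list for eGFP and the list for Nfatc1 shared no gene. Lists of 5 drawn from 9609 genes would seldom share one, so nothing is read from this. These are descriptions over classes that share libraries and depth.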

How the data were processed

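The deposited matrices hold raw UMI counts per gene and barcode, which the authors made from 10x Genomics 3' v3 libraries; the file headers give Cell Ranger 3.0.2. The submitters' processing notes name the build as GRCm38 (mm10) and, beside Cell Ranger, Seurat 3.0.0 and 3.1.0. The mutant matrix held 13411 barcodes with 97817173 UMIs, and the control matrix 16973 barcodes with 140880809 UMIs. Barcodes under 500 detected genes or above 15% mitochondrial UMIs were dropped, and Scrublet calls (453 mutant and 366 control cells, 3.95% and 2.59%, against expected rates of 9.16% and 11.3%) were removed. Cells of both matrices were clustered together (scanpy 1.11.5, 2000 variable genes, 30 principal components, 15 neighbours, Leiden resolution 1). A cluster was named "X-like" if its best marker list scored at least 1, led the next by 0.5 and held at least 3 detected markers, with no more markers of another type among its 10 leading genes.

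Levels are CPM of summed UMIs. Ratios carry exact conditional Poisson 95% intervals that cover counting error only. With 1 matrix per group nothing was tested, and a value was called by size alone: at least 1.5-fold, nearer bound beyond 1.2-fold, at least 20 CPM. For genes that go with eGFP, eGFP-negative cells were weighted to the class makeup of the others, up to 12 genes called in both matrices were named per direction, and the 5 most alike across classes. On Poisson counts drawn from each cluster's mean, with 200 genes above the 20 CPM minimum changed 2-fold, this step recovered 100% in each matrix. False calls were 0 among 5120 unchanged genes compared in the mutant and 0 among 5036 in the control. Simulated cells of a cluster varied by counting error alone, so this checks the arithmetic and not the rate of false calls in real cells. edgeR 4.0.16 and DESeq2 1.42.0 gave scaling factors on class sums as alternatives. The members, gene lists and alternatives were chosen with earlier results of these data known. Depth limits Nfatc1, with 1354 mutant and 1707 control UMIs spread over all classes.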

Additional observations from a re-analysis of the deposited data

Results flagged for a closer look

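Between follicle keratinocytes with at least 1 eGFP UMI and those with none, 2 genes passed the size rule in opposite directions in the mutant and control matrices. The genes compared numbered 5326 in the mutant and 5299 in the control. Ccl20, a chemokine that draws CCR6-bearing immune cells, had a log2 ratio of 0.67 in the mutant (45.2 CPM in eGFP-positive and 28.3 CPM in eGFP-negative cells) and -0.70 in the control (22.998 CPM in eGFP-positive and 37.4 CPM in eGFP-negative cells). Krt81, a hair shaft keratin, had -0.94 in the mutant (148 CPM in eGFP-positive and 283 CPM in eGFP-negative cells) and 0.68 in the control (27.4 CPM in eGFP-positive and 17.1 CPM in eGFP-negative cells). The difference between the matrices was not tested for either gene. Genes called in opposite directions numbered 0 after thinning to 3000 UMIs and 0 with at least 100 CPM. They numbered 3 without weighting, 5 with resolution 2 classes and 25 without the filter on low levels. With eGFP-high cells they numbered 2, and 0 once cells over 20000 UMIs were left out.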

How the results depend on the processing

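With 1 pooled matrix per group, there was no library to leave out. No paired analysis was possible because each group's samples stand in 1 matrix with no replicate numbers. Alternatives that needed the tomato reporter, at 0 throughout, gave no value. The eGFP-high threshold, the comparisons based on it and those without deep or shared barcodes were chosen after seeing the data.

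At least 1 eGFP UMI was found in 58.7% of mutant follicle keratinocytes at resolution 0.5, in 64.3% of mutant and 51.9% of control ones without cells over 20000 UMIs, and after thinning to 3000 UMIs in 54.8% of mutant and 44.6% of control ones. At least 2 UMIs were found in 50.5% of mutant and 41.1% of control cells. The eGFP-high share was 35.9% in the mutant at resolution 0.5, 37.2% in the control under the stricter cell filter, 41.5% in the mutant and 31.6% in the control without cells over 20000 UMIs, and with 8 UMIs as the threshold 37.9% in the mutant and 33.0% in the control. In 20 of 23 classes the eGFP-high share was higher in the mutant, and under the alternatives in 18 of 20, 20 of 21, 20 of 22 or 20 of 23.

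The follicle eGFP log2 ratio, mutant over control, was 0.12 with the stricter filter, -0.040 at resolution 0.5, 0.11 with each matrix clustered on its own, 0.22 without cells over 20000 UMIs and 0.10 with DESeq2 factors. For Nfatc1 it was 0.19 at resolution 0.5, -1.08 with each matrix clustered on its own and 0.18 without cells over 20000 UMIs. The Nfatc1 ratio of eGFP-positive over eGFP-negative mutant cells, 0.62, was -0.10 at resolution 0.5, and the direction was positive in every other alternative. Resolution 0.5 placed 1257 mutant but 29 control interfollicular basal cells among follicle cells, and clustering apart took 448 of 465 mutant but 17 of 326 control cells of cluster 13 out of them.

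Genes higher with eGFP in both matrices, 1 with at least 1 eGFP UMI, numbered 26 without weighting, 8 without the filter on low levels, and 0 after thinning, with at least 100 CPM or with resolution 2 classes. With eGFP-high cells they numbered 3, and 59 without weighting, 10 without cluster 13, 2 after thinning and 2 with resolution 2 classes. Genes lower in both, 12 with at least 1 eGFP UMI, numbered 2 without weighting, 3 after thinning, 32 without the filter and 5 with at least 100 CPM. With eGFP-high cells they numbered 17, and 6 after thinning and 5 without cells over 20000 UMIs. Without weighting, class makeup enters these counts by construction, and the cause of the other moves was not tested.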

Other observations

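The shares of eGFP UMIs by class differed from those of Nfatc1 UMIs. Dividing cells of cluster 0 held 25.5% of all eGFP UMIs in the mutant and 10.1% in the control, but 3.18% of Nfatc1 UMIs in the mutant and 1.64% in the control. The outer root sheath-like class held 10.96% of eGFP UMIs in the mutant and 22.5% in the control, and interfollicular basal-like cells held 17.3% of Nfatc1 UMIs in the mutant and 13.9% in the control, against 4.69% of eGFP UMIs in the mutant and 3.25% in the control.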
